A study of Nasonia vitripennis with 9 samples.

Results

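The numbered serine proteases and serine protease homologs of the parasitoid wasp *Nasonia vitripennis* were followed across an injection experiment in male white pupae. The members were all genes in the count tables whose symbol is SP or SPH followed by a number, 51 of 15418 named genes. Of these, 43 carry the symbol SP, for serine protease, and 8 the symbol SPH, for serine protease homolog. All 51 were found in the RefSeq gene table as protein-coding genes.

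RNA was sequenced from pools of 5 whole males of the laboratory strain AsymCX, which the labels describe as cured of Wolbachia and reared on Calliphora hosts at 25 °C. The dsGFP group received double-stranded RNA against green fluorescent protein, a sequence with no intended target in the wasp, dissolved in water at 4 µg/µl and coloured with a red dye. The water group received water with the same dye, and the uninjected group received no injection. Each group had 3 pools. Injection took place at the second larval instar, roughly 3 days after the eggs were laid, with the larvae lying on 1% agarose. Injected larvae went back to hosts in lots of 6 to 8 and were collected as white pupae 5 to 6 days later. For uninjected pupae the labels give neither handling nor age at collection separately. One field of the labels calls the same material whole larvae. The labels do not tie pools to hosts or cultures. The p-values below therefore measure the spread between these pools and nothing wider, and some of that spread may be technical. In pools of whole bodies, fewer cells of a type and less RNA per cell cannot be told apart.

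Serine proteases of the trypsin type cut proteins with an active site of histidine, aspartate and serine, and most are made as inactive precursors that another protease must cut. Serine protease homologs keep the fold but have lost an active-site residue, so most cannot cut and several are known as cofactors. In insects these families digest food in the gut, shape tissues during moulting and metamorphosis, and form the blood cascades that activate prophenoloxidase for melanisation and the Toll ligand Spätzle for the antimicrobial response. Serpins inhibit such proteases. Serine proteases are also found in the venom of female parasitoid wasps. The symbols of the numbered members do not say which of these roles a member has, and none is assigned here.

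Gene totals per library were 33885222 to 35982723 read pairs in the dsGFP group, 36177528 to 37100106 in the water group and 38792239 to 46080606 in the uninjected group. Every dsGFP or water library was therefore shallower than every uninjected library. Levels are given as CPM, a gene's read pairs relative to its library's size, with library sizes scaled by TMM factors. CPM is not divided by transcript length, so the order of genes by CPM is not an order of transcript abundance. Member genes together took 61933 to 104463 read pairs per dsGFP library, 83543 to 122302 per water library and 115239 to 126766 per uninjected library.

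SP70 alone carried 28.4 to 61.4% of the members' read pairs in the dsGFP libraries, 53.7 to 69.7% in the water libraries and 59.6 to 64.9% in the uninjected libraries. It had 1223, 579 and 1811 CPM in the dsGFP pools, 2051, 2271 and 1155 CPM in the water pools, and 1805, 1700.4 and 1706 CPM in the uninjected pools. The uninjected pools lay close together, while dsGFP 2 was far below the other 8 libraries. SP142 averaged 230.0 ± 7.90 CPM with dsGFP, 224 ± 3.63 CPM with water and 237 ± 38.8 CPM in uninjected pools (SD, n = 3 each), so group means differed little beside the spread of the uninjected pools. SP110 averaged 114 ± 12.8 CPM with dsGFP, 104 ± 6.97 CPM in water pools and 94.3 ± 14.5 CPM uninjected (SD, n = 3 each), and the 3 groups overlapped. By mean CPM over the 9 libraries, 6 members lay at 100 CPM or more, 6 between 10 and 100, 13 between 1 and 10, and 26 under 1 CPM.

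**Figure D1:**
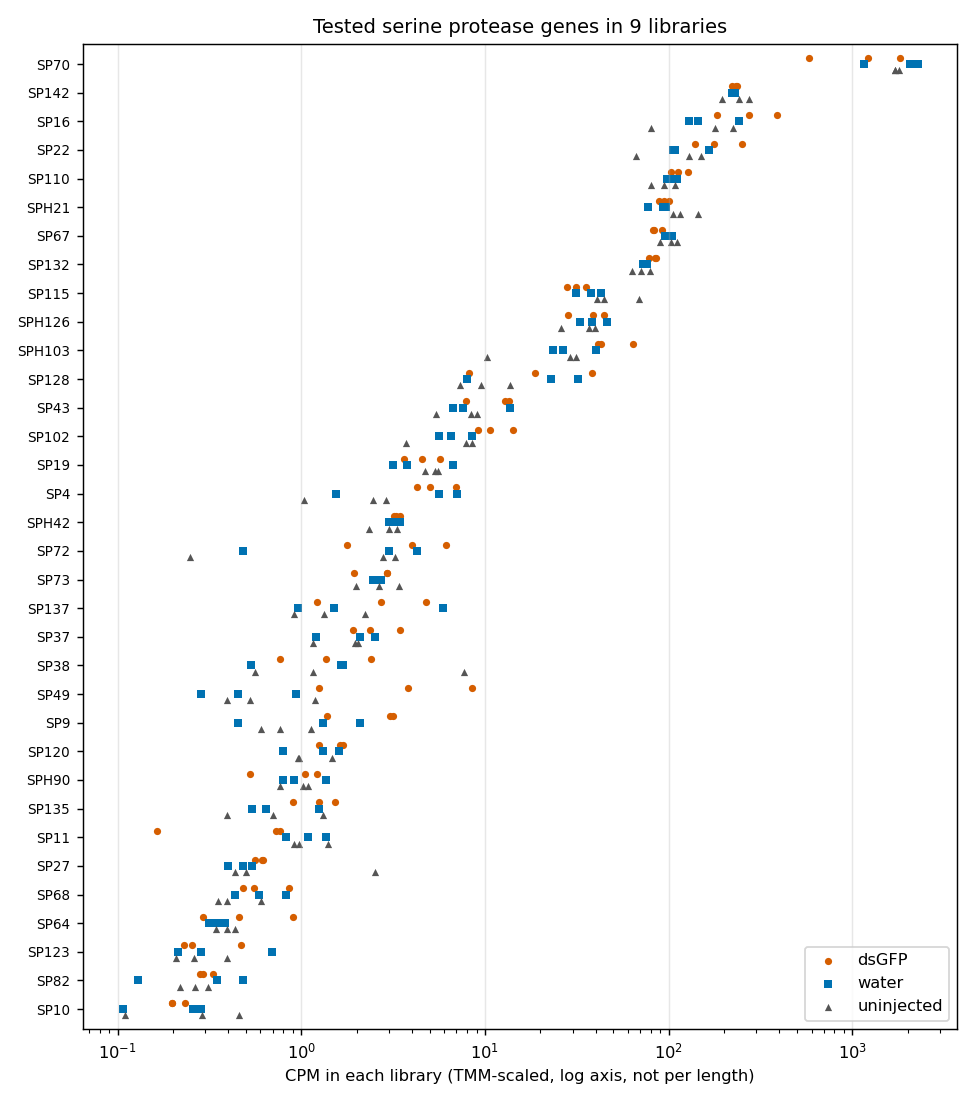
CPM of the 34 tested members in each of the 9 libraries, on a log axis and not divided by length; circles are dsGFP, squares water and triangles uninjected pools. Members differ from each other far more than groups do, and SP49, SP72 and SP38 spread over more than 10-fold between libraries.

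A count filter by group (minimum count 10, minimum total 15) left 34 members that could be tested, 29 SP and 5 SPH genes, and 17 that could not. The 17 were SP7, SP17, SPH29, SP33, SP47, SP48, SP50, SP52, SP76, SP87, SPH93, SP96, SP97, SP100, SP122, SPH125 and SP133. None exceeded 11 counts in any library. Of these 17, 4 had a count in all 9 libraries (SP17, SP50, SP96 and SP133), and 13 were at 0 in at least 1 library. At these depths a gene at 0 counts could still be present at up to 3 counts, which is 0.0847 to 0.0988 CPM in a dsGFP library, 0.0773 to 0.0856 CPM in a water library and 0.0623 to 0.0788 CPM in an uninjected library, by counting error only. The least detected, SP97, had a single read pair, in a dsGFP library. SP100 had 2 counts over the dsGFP libraries, 3 over the water libraries and 0 over the uninjected libraries, so no difference was detectable at this depth.

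The comparison of dsGFP with water asks what the double-stranded RNA adds to an injection. By edgeR's quasi-likelihood test 0 of the 34 tested members passed an adjusted p of 0.05, as did 0% of all 11665 tested genes. An unadjusted p under 0.05 was met by 2 members (5.88%), SP49 and SP102, beside 6.09% of all genes. Limma-voom called 0 members and 0% of all genes. DESeq2 called 1 member, SP49, and 0.0414% of all genes. Higher fitted values with dsGFP were found for 25 of 34 members (73.5%), against 51.9% of all tested genes, with a median log2 fold change of 0.11 for members and 0.01 for all genes. The median over members in single libraries varied within groups with a pooled SD of 0.20 on the log2 scale. Several members also vary together from pool to pool, so the 34 are not separate observations. A shift of the family was not tested.

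SP49 had the widest separation. It had 3.83, 1.25 and 8.56 CPM in the dsGFP pools, against 0.941, 0.453 and 0.283 CPM in the water pools and 1.18, 0.524 and 0.394 CPM in the uninjected pools. All dsGFP pools lay above all others, but the lowest of them, dsGFP 2, was barely above uninjected 1, and the dsGFP pools themselves differed 6.84-fold. Against water the fitted log2 change was 3.03 (SE 0.81, edgeR adjusted p = 0.702), an 8.17-fold difference with a 95% interval of 2.21 to 30.2. DESeq2 gave an adjusted p of 0.00653, and over all alternatives the adjusted p ran from 0.00653 to 1.00 and the log2 fold change from 2.19, without dsGFP 3, to 3.62, without water 1. Among the 34 tested members SP49 was the only gene whose group means differed more (8.13-fold from lowest to highest) than its pools did within any group.

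SP102 had 10.7, 9.19 and 14.2 CPM in the dsGFP pools, against 8.47, 6.53 and 5.64 CPM in the water pools and 8.46, 7.93 and 3.71 CPM in the uninjected pools. The dsGFP pools did not overlap the others. The log2 fold change against water was 0.72 (SE 0.30, edgeR adjusted p = 0.803), or 1.65-fold with a 95% interval of 1.03 to 2.65. SPH103, which the gene order places near SP102, had 43.0, 63.9 and 41.5 CPM in the dsGFP pools, against 40.1, 23.6 and 26.6 CPM in the water pools, with no overlap and a log2 fold change of 0.72 (SE 0.44, edgeR adjusted p = 0.923). SP132 and SP27 were also higher without overlap, by 0.15 (SE 0.10) and 0.33 (SE 0.66) on the log2 scale. SP132 had 78.6, 85.9 and 84.4 CPM in the dsGFP pools, against 76.4, 73.0 and 75.7 CPM in the water pools. SP27 was low, with 21, 17 and 22 counts in the dsGFP libraries and 14, 18 and 21 counts in the water libraries. For both genes the separation depends on the TMM factors, and without them the pools overlap. In all, 5 of 34 members (14.7%) were higher with dsGFP without overlap in CPM, beside 4.77% of all tested genes.

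Lower values without overlap were found for SP11 and SP67, 2 of 34 members (5.88%), beside 7.57% of all tested genes. SP11 had 0.730, 0.165 and 0.763 CPM in the dsGFP pools, which is 5 to 27 counts, against 1.08, 1.36 and 0.825 CPM in the water pools, which is 32 to 51 counts. The fitted log2 change was -0.96 (SE 0.44, edgeR adjusted p = 0.821). SP67 had 83.2, 82.3 and 92.6 CPM with dsGFP, against 97.5, 104 and 95.6 CPM with water, a narrow difference of -0.20 on the log2 scale (SE 0.10, edgeR adjusted p = 0.875). For 13 of 34 members (38.2%) the whole 95% interval lay within 2-fold, against 83.1% of all tested genes. The median half-width of the interval was 0.86 on the log2 scale for members and 0.33 for all genes, which were not matched to the members by level. By symbol, 4 of 5 SPH genes and 9 of 29 SP genes lay within 2-fold, and the difference was not tested.

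**Figure D2:**
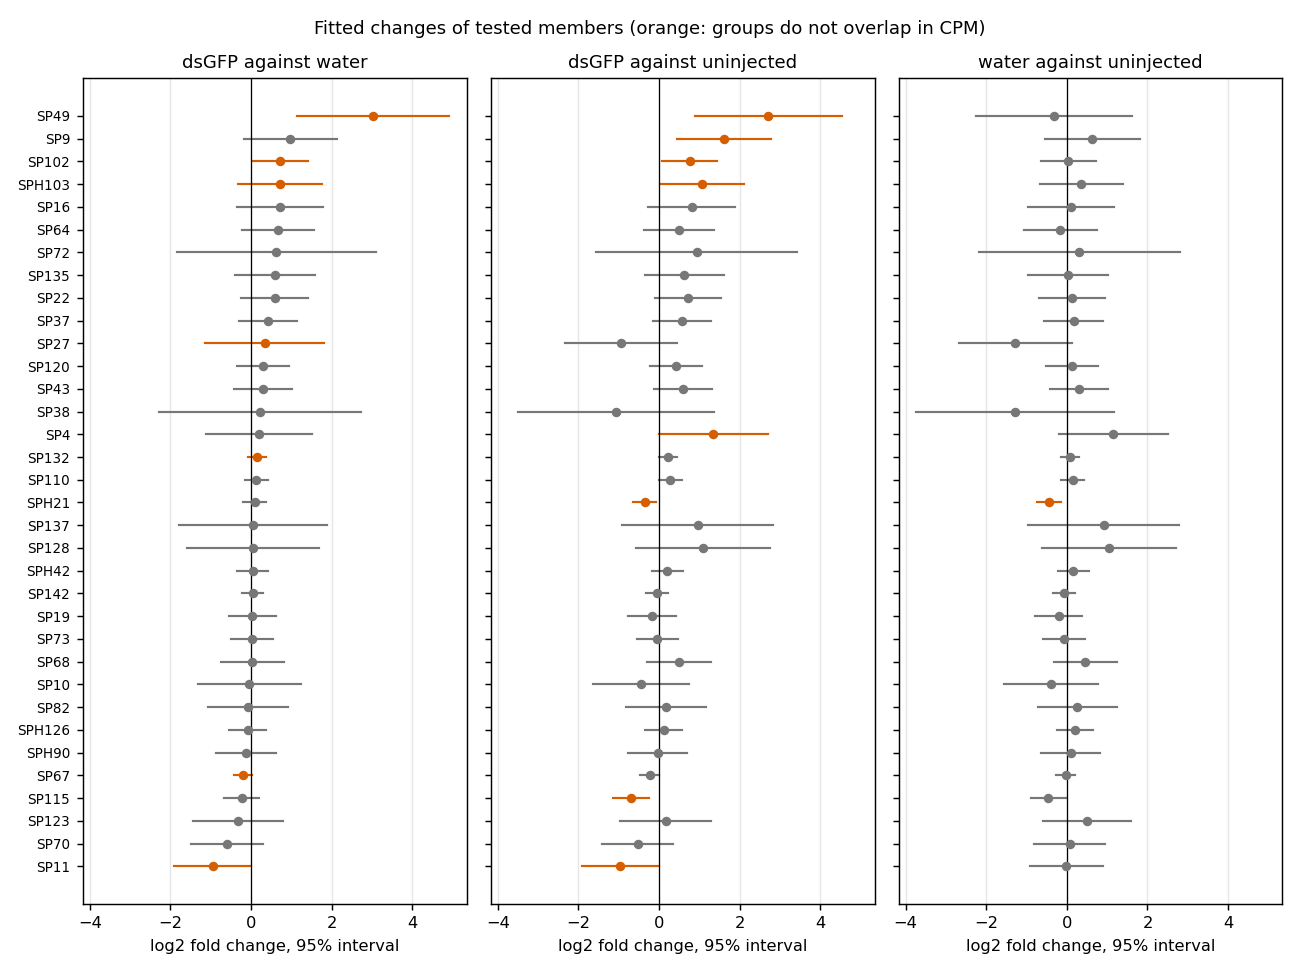
Fitted log2 fold changes with 95% intervals for the 34 tested members in 3 comparisons, sorted by the change between dsGFP and water; orange marks members whose groups do not overlap in CPM. SP49 has the highest value in both dsGFP panels and an interval from -2.25 to 1.62 in the water panel, and most intervals cross 0.

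Pupae injected with dsGFP differ from uninjected pupae at least by injection, dye, handling and double-stranded RNA. The dsGFP pools are those of the comparison above, so the values below are not a second source for them. By edgeR's test 0 of 34 members passed, although 4.55% of all 11665 tested genes did, 0.437% higher and 4.11% lower. Limma-voom called 0 members beside 3.64% of all genes. An unadjusted p under 0.05 was met by 8 members (23.5%), beside 18.7% of all genes. DESeq2 called 4 members (SP9, SP49, SPH103 and SP115), beside 7.79% of all genes.

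Several summed gene lists also separated dsGFP from uninjected pools. The rRNA list (245 genes, 180 of them at 0 in every library) summed to 29.0 to 43.8 CPM in dsGFP pools, 16.1 to 34.8 CPM in water pools and 5.31 to 13.3 CPM in uninjected pools, so both injected groups lay above the uninjected pools. The list of hemocyte or fat body genes (3 genes, all hexamerins) summed to 2036 to 3088 CPM with dsGFP and 3265 to 4451 CPM uninjected. The nervous system list (16 genes) summed to 199.9 to 257 CPM with dsGFP and 271 to 351 CPM uninjected, and the respiration list (64 genes) to 7914 to 8544 CPM and 8689 to 9916 CPM. In these last 3 lists no gene was at 0 in every library. The part of rRNA, tissue makeup or depth in the values of SP115, SP9, SP49, SPH103 and SPH21 was not tested.

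SP115 came closest by edgeR's test. It had 31.4, 27.99 and 35.7 CPM in the dsGFP pools, against 40.7, 68.6 and 44.6 CPM in the uninjected pools, with no overlap. Uninjected 2 stood well above the other 8 libraries. This was a log2 fold change of -0.70 (SE 0.20, edgeR adjusted p = 0.0866; DESeq2 adjusted p = 0.0228). With upper-quartile factors it passed edgeR's test (adjusted p = 0.0362), as it did without uninjected 1 (adjusted p = 0.0339); the adjusted p over all alternatives ran from 0.0228 to 0.808.

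SP9 had 3.15, 1.38 and 3.05 CPM with dsGFP, against 1.13, 0.765 and 0.602 CPM in uninjected pools, and the groups did not overlap. The fitted log2 change was 1.61 (SE 0.52, edgeR adjusted p = 0.136; DESeq2 adjusted p = 0.0198). It passed edgeR's test without water 2 (adjusted p = 0.0485), a library outside this comparison that enters the shared estimate of spread. SP49 gave a log2 fold change of 2.72 (SE 0.78, edgeR adjusted p = 0.119; DESeq2 adjusted p = 4.28e-04). SPH103 had 31.3, 29.1 and 10.2 CPM in uninjected pools, all below the dsGFP pools, with a log2 fold change of 1.07 (SE 0.44, edgeR adjusted p = 0.254; DESeq2 adjusted p = 0.0346).

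SP4 and SP102 were the other members higher without overlap, 5 of 34 in all (14.7%) beside 8.79% of all tested genes. SP4 had 6.98, 4.25 and 5.00 CPM with dsGFP, against 2.89, 2.47 and 1.04 CPM uninjected (log2 fold change 1.35, SE 0.58, edgeR adjusted p = 0.269). Lower without overlap were SPH21, SP115 and SP11, 3 of 34 (8.82%), beside 13.1% of all tested genes. The median log2 fold change was 0.25 over the 34 members and 0.01 over all tested genes. Beside it stands the pooled SD of 0.20 given above for the members' median in single libraries within groups.

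**Figure D3:**
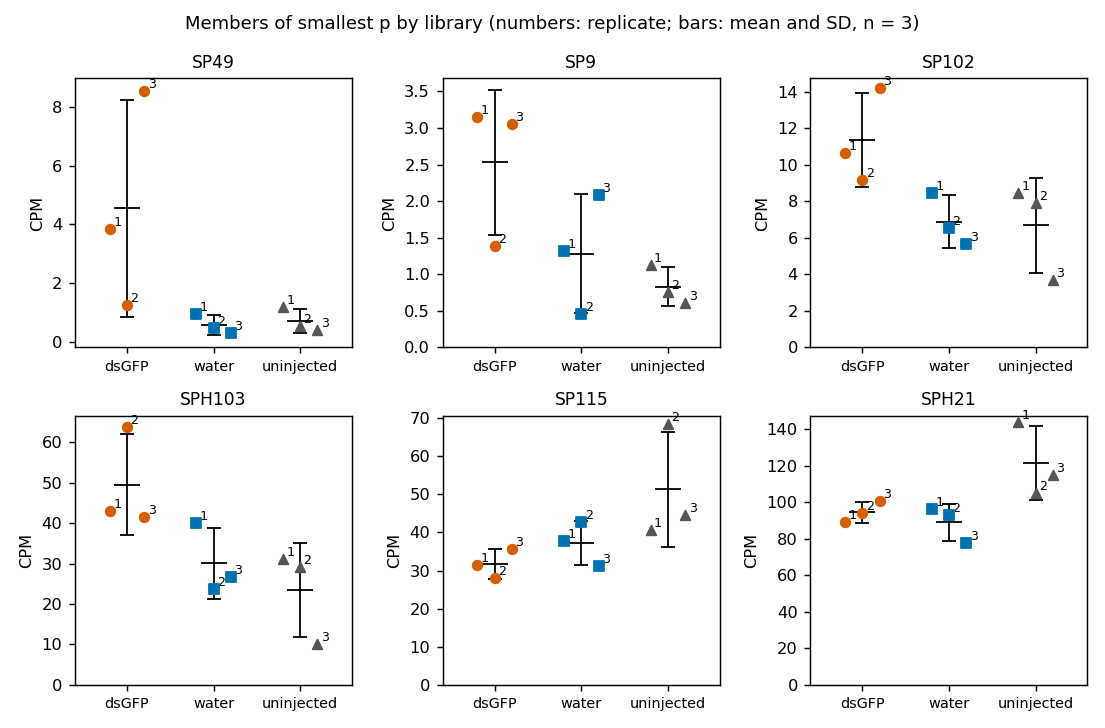
CPM of 6 members of small p in each pool, with group means and SD as bars (n = 3) and replicate numbers beside the points. The dsGFP pools lie above both other groups for SP49, SP102 and SPH103, and the uninjected pools lie above both other groups for SPH21.

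Water against uninjected pupae sets injection, dye and the handling that goes with them, without double-stranded RNA, against no injection. Its uninjected pools are those of the comparison above. By edgeR's test 0 of 34 members passed, beside 0.00857% of all tested genes. DESeq2 and limma-voom also called 0 members, beside 0.359% and 0.00857% of all genes. An unadjusted p under 0.05 was met by 2 members (5.88%), SPH21 and SP115, beside 5.68% of all genes. No member was higher without overlap (0 of 34, beside 2.85% of all genes), and 1 of 34 was lower without overlap (2.94%, beside 5.79% of all genes). The whole interval lay within 2-fold for 17 of 34 members, beside 84.6% of all genes.

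That member was SPH21, a serine protease homolog. It had 96.6, 93.2 and 77.5 CPM in the water pools and 144, 105 and 115 CPM in the uninjected pools. The dsGFP pools, at 89.1, 94.1 and 101 CPM, also lay below every uninjected pool. The log2 fold change of water against uninjected was -0.45 (SE 0.13, edgeR adjusted p = 0.555), and that of dsGFP against uninjected was -0.36 (SE 0.13, edgeR adjusted p = 0.180). SP115 had 37.7, 42.7 and 31.2 CPM in the water pools, with 1 of these above the lowest uninjected pool (log2 fold change -0.46, SE 0.20, edgeR adjusted p = 0.840). SP4 had 7.02, 1.54 and 5.64 CPM with water, so water 2 lay below uninjected 1 and 2 (log2 fold change 1.15, SE 0.58, edgeR adjusted p = 0.978).

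Against uninjected pupae the 6 injected pools as a single set gave 0 called members by edgeR, beside 3.04% of all tested genes (0.206% higher and 2.84% lower). Limma-voom also called 0 members, beside 1.96% of all genes. SPH21 averaged 91.9 ± 8.00 CPM in injected pools (SD, n = 6) and 121 ± 20.3 CPM in uninjected pools (SD, n = 3), a log2 fold change of -0.40 (SE 0.11, edgeR adjusted p = 0.0996). It was lower in 6 of 6 injected pools, and no other member was separated in this way (1 of 34 lower and 0 of 34 higher without overlap, beside 4.46% and 1.87% of all genes). DESeq2 called 2 members, SP115 (edgeR adjusted p = 0.113) and SP4 (edgeR adjusted p = 0.341), beside 5.34% of all genes. An F test for any difference among the 3 groups called 0 members, beside 2.04% of all genes, and 5 of 34 had an unadjusted p under 0.05, beside 12% of all genes. SP49 had the smallest p of the members (edgeR adjusted p = 0.141).

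The spread between pools of 1 group was wide for many members of this family. The biological coefficient of variation estimated by edgeR had a median of 29.4% over the 34 tested members (13.1 to 84.4%), against 17.1% over all tested genes. It exceeded 40% for 8 of 34 members (23.5%) and for 4.64% of all genes. These 8 were SP72, SP38, SP137, SP49, SP128, SP27, SP4 and SP9. In 33 of 34 members (97.1%) the largest fold between pools of a single group exceeded the fold between the highest and lowest group means, as it did in 89.0% of all genes without a 0. The median largest fold within a group was 2.54 for members and 1.38 for those genes. Members and all genes were not matched by level, and folds at low counts include counting error. Of the 6 members at 100 CPM or more, SP16, SP22 and SP70 had coefficients of 38.1, 30.2 and 34.4%. The others, SPH21, SP110 and SP142, had 14.9, 14.7 and 14.7%, below the median of all genes. A wide spread was therefore not shared by the whole family.

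SP72, with the highest coefficient of the 34, ranged 24.7-fold over the 9 libraries. It had 6.16, 4.02 and 1.78 CPM in the dsGFP pools, 2.99, 0.479 and 4.28 CPM in the water pools and 2.78, 3.26 and 0.249 CPM in the uninjected pools. SP128 had 38.1, 18.8 and 8.22 CPM with dsGFP, 32.1, 7.99 and 22.8 CPM in the water pools and 13.7, 7.28 and 9.57 CPM uninjected. At the even end, SP67 ranged 1.34-fold over the 9 libraries and SP132 ranged 1.37-fold.

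Several members varied together from pool to pool. In the RefSeq gene order of the assembly Nvit_psr_1.1, whose use here is limited to names and order, many numbered members stand in runs, among them SP47, SP48, SP49 and SP52, then SP123, SP128, SP120 and SPH126, and the adjacent pair SP22 and SP16. SP16 had 275, 388 and 183 CPM in the dsGFP pools, 241, 129 and 144 CPM in the water pools and 223, 178 and 80.7 CPM in the uninjected pools. SP22 had 176, 252 and 139.8 CPM with dsGFP, 165, 106 and 108 CPM in the water pools and 149.9, 129.8 and 66.7 CPM uninjected. The order of the 9 libraries was the same for both genes.

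Across the 9 libraries SP22 and SP16 correlated at r = 0.995 (exact permutation p = 2.76e-06, the smallest the permutations can give) and rho = 1.00 (exact permutation p = 5.51e-06). Without uninjected 3 and dsGFP 2, the libraries farthest from the median, r was 0.988, and with group means removed it was 0.993. This was 1 of 9 pairs of tested members with at most 2 protein-coding genes between them, and the adjusted p over the 9 pairs was 2.48e-05 for r. SPH103 and SP102 also passed (r = 0.844, adjusted exact permutation p = 0.0311; rho = 0.917, adjusted exact permutation p = 0.00590; r = 0.730 within groups). Both genes were higher in every dsGFP pool than in any other pool. The permutations move libraries across groups, so these p-values include differences between groups, and r within groups was not tested. The other 7 pairs did not pass for r. For rho, SP128 with SP120 (0.80) and SP11 with SP9 (-0.82) also passed, at an adjusted exact permutation p of 0.0311 each, although r of SP11 with SP9 within groups was 0.157. SP73 with SP72, also adjacent, gave r = -0.125. For comparison the median r over all 561 pairs of tested members was 0.083, and 10 of these pairs exceeded 0.9. Among the 10 were SP22 with SPH103 (r = 0.966) and SP16 with SPH103 (r = 0.947), which are not among the 9 neighbour pairs. A high r was therefore not limited to neighbours. These pairs were examined after values had been seen, and the libraries share the same 9 pools.

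The summed level of the cuticle gene list (40 genes, of which 1 was at 0 in every library) moved with some members. The list measures genes of the cuticle, whose levels change over pupal development. It summed to 23900.2, 38233 and 5003 CPM in the dsGFP pools, 22184, 1538 and 12475 CPM in the water pools and 11917, 6416 and 308 CPM in the uninjected pools. In each group the pool highest for the list was also the highest for SP16, SP22, SP37, SPH103, SP68, SP110 and SP132. The pool lowest for the list was also the lowest for SP16, SP22, SP37, SPH103, SP72, SP38 and SP137. SP37 had 2.37, 3.46 and 1.92 CPM with dsGFP, 2.51, 1.198 and 2.09 CPM in the water pools and 2.05, 1.97 and 1.16 CPM uninjected.

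On a log2 scale SP37 correlated with the cuticle sum at r = 0.939 over 9 libraries and rho = 0.983, with adjusted exact permutation p = 0.00268 and 0.00804 over all 11665 tested genes. Without uninjected 3 and water 2, the libraries farthest from the median, r was 0.886, and within groups it was 0.939. SP16 gave r = 0.919 and SP22 r = 0.901, with adjusted exact permutation p = 0.0153 and 0.0247. Their rho was 0.883 each (adjusted exact permutation p = 0.0888). Without the same libraries r was 0.792 for SP16 and 0.745 for SP22 (exact permutation p = 0.0337 and 0.0482), and within groups it was 0.930 and 0.899. SP72 (r = 0.938) and SPH103 (r = 0.899) also passed for r. Without those libraries r was 0.661 for SP72 and 0.614 for SPH103 (exact permutation p = 0.105 and 0.144). Uninjected 3 and water 2 are the lowest for the cuticle sum, so the 7 libraries left span a narrower range of it. They cannot show whether the relation of SP72 and SPH103 rests on those 2 libraries. Within groups r was 0.938 for SP72 and 0.901 for SPH103.

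In all, 5 of 34 members (14.7%) passed for a positive r with the cuticle sum, beside 3.68% of all tested genes, and 0 of 34 for a negative r, beside 0.48%. For rho only SP37 passed. An r of at least 0.8 was reached by 7 of 34 members (20.6%), beside 7.18% of all genes, and the median r was 0.57 over members and -0.07 over all genes. SP67 was at the other end, with r = -0.758 (adjusted exact permutation p = 0.123), and -0.418 without those libraries. A fit with the cuticle sum as a covariate was added after the values had been seen. For dsGFP against uninjected it called 2.57% of all tested genes, against 4.55% without it, and 1.1% against 3.04% for injected against uninjected; 0 members were called with or without it. In that fit SP9 had a log2 fold change of 1.31 for dsGFP against uninjected (edgeR adjusted p = 0.392), against 1.61 without the covariate, and SP115 one of -0.65 (edgeR adjusted p = 0.277). SP49 kept its value against water, 3.03. SP9, SP115 and SP49 had not passed for r with the cuticle sum (r = 0.61, -0.48 and 0.34). Values from this fit are not given here for members that had passed, such as SPH103. Standard errors were larger with the covariate, 0.56 against 0.52 for SP9 and 0.23 against 0.20 for SP115. Fewer calls therefore do not by themselves show smaller changes. The cuticle sum overlapped between the groups.

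**Figure D4:**
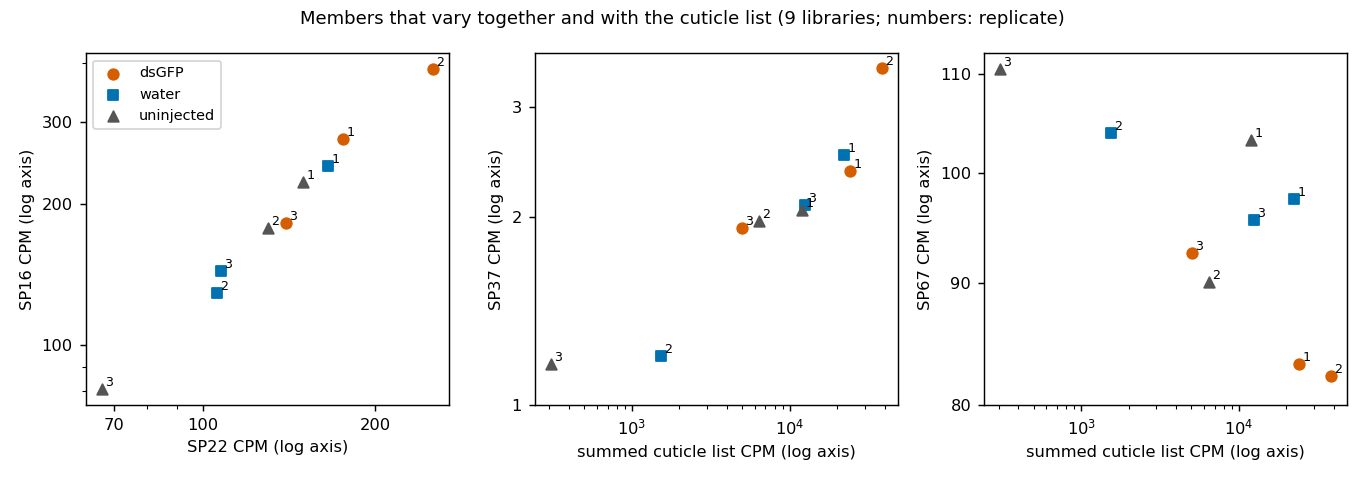
Pool by pool levels on log axes, with replicate numbers beside the points: SP16 against SP22 on the left, and SP37 and SP67 against the summed CPM of the cuticle list in the middle and on the right. SP16 rises with SP22 in every step (rho = 1.00), SP37 is lowest in uninjected 3 and water 2, where the cuticle sum is lowest, and SP67 is highest there.

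Uninjected 2 stood apart for a few members. SP38 had 1.37, 2.40 and 0.763 CPM in the dsGFP pools, 1.68, 0.533 and 1.65 CPM in the water pools, and 1.16, 7.73 and 0.560 CPM in the uninjected pools. SP27 had 2.51 CPM in uninjected 2, against 0.399 to 0.621 CPM in the other 8 libraries, and SP115 was also highest there. The defensin genes Def1-1 and Def1-2, which encode antimicrobial peptides, were at 601 and 822 CPM in the same pool. In the other 8 libraries they reached at most 71.7 and 196 CPM. Other genes of the immunity list given below were not at their highest in this pool. There Imd had 32.0 CPM, Gnbp1-2 19.9 CPM, ppo1 0.393 CPM, ppo3 287 CPM and serpin5 307 CPM. The part of this pool's defensin level in the values of SP38, SP27 and SP115 was not tested. Without uninjected 2 the log2 fold change of SP115 for dsGFP against uninjected was -0.44 (edgeR adjusted p = 0.214), against -0.70 with it.

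**Figure D5:**
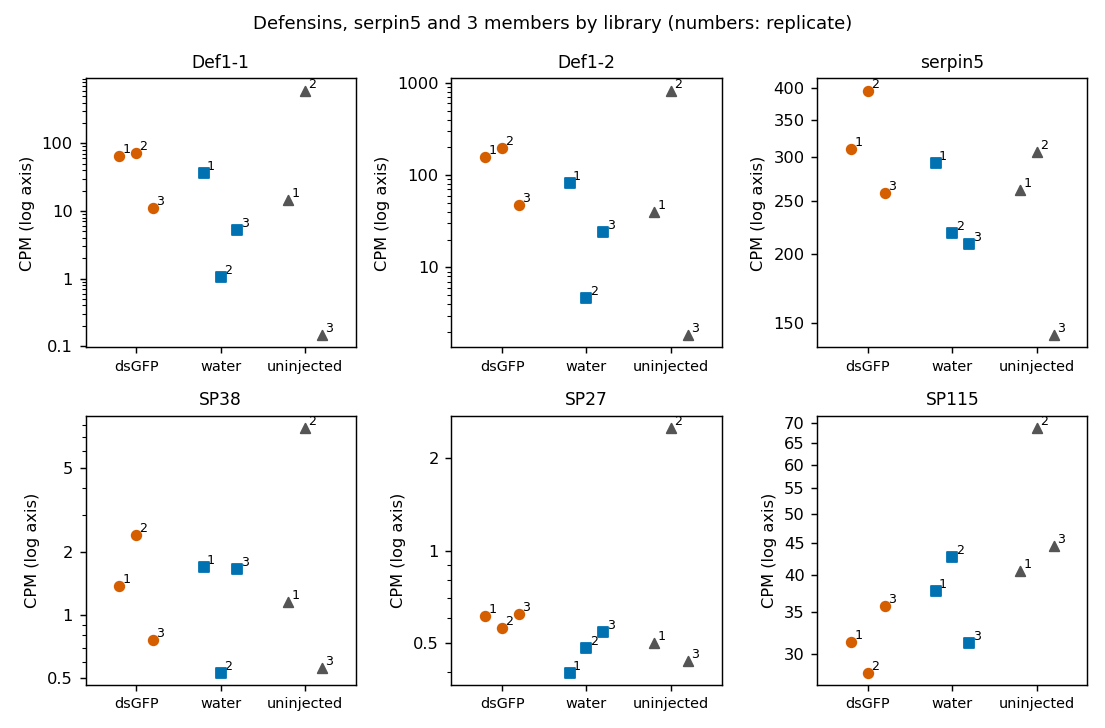
CPM on log axes of 2 defensin genes, the serpin gene serpin5 and 3 members in each pool, with replicate numbers beside the points. Uninjected 2 is the highest of the 9 libraries in the panels of Def1-1, Def1-2, SP38, SP27 and SP115, and not in that of serpin5.

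Few genes around the protease cascades could be matched by symbol. The list of immunity and melanisation genes held 7 members, all tested: Def1-1, Def1-2, the immune signalling gene Imd, the glucan-binding gene Gnbp1-2, the prophenoloxidase genes ppo1 and ppo3, and serpin5. Between dsGFP and water 0 of 7 passed edgeR's test, beside 0% of all tested genes, and 5 of 7 had higher fitted values with dsGFP, beside 51.9% of all tested genes. Between water and uninjected pupae 0 of 7 passed, beside 0.00857%. Between dsGFP and uninjected pupae 1 of 7 fell, beside 4.11% of all tested genes. It was Gnbp1-2, at 12.7 ± 2.49 CPM with dsGFP and 20.3 ± 2.78 CPM uninjected (SD, n = 3 each; log2 fold change -0.68, SE 0.16, edgeR adjusted p = 0.0417).

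The prophenoloxidase genes, whose products are activated by serine proteases, did not pass. ppo3 averaged 253 ± 33.9 CPM in dsGFP pools, 255 ± 42.0 CPM in water pools and 273 ± 15.4 CPM in uninjected pools (SD, n = 3 each). ppo1 was low, at 0.947 ± 0.721 CPM with dsGFP, 0.485 ± 0.307 CPM with water and 0.318 ± 0.228 CPM uninjected (SD, n = 3 each). serpin5, of the family that inhibits serine proteases, had 322 ± 69.6 CPM with dsGFP, 240.0 ± 45.9 CPM with water and 237 ± 84.8 CPM uninjected (SD, n = 3 each; dsGFP against water 0.42 on the log2 scale, SE 0.28, edgeR adjusted p = 0.928).

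The counts of some members depend on how overlapping genes were treated. The main column counts a read pair without regard to strand and drops pairs that overlap more than 1 gene. For 29 of 34 tested members the summed strand-specific columns held 0.95 to 1.1 times as many pairs. For the other 5 they held more: 3.32 times for SP123, 1.74 times for SP120, 1.29 times for SP37, 1.22 times for SP16 and 1.13 times for SP22. The pairs beyond the main column overlap another gene as well, and with no strand in the data they cannot be assigned to either, so the levels of these 5 members are uncertain, most of all that of SP123. On the summed strand-specific columns, tried after the values had been seen, SP22 and SP16 correlated at r = 0.995 and rho = 1.00 (exact permutation p = 2.76e-06 and 5.51e-06). Summing these columns can count a single pair for both genes it overlaps. Which genes overlap SP16 and SP22 was not examined. If these neighbours overlap each other, shared pairs enter both, so this r is not a separate check of their correlation. With the cuticle sum r was 0.971 for SP37, 0.929 for SP16 and 0.901 for SP22, with rho of 0.933, 0.883 and 0.883. The exact permutation p, not adjusted, was 2.2e-05, 1.85e-04 and 6.06e-04 for r and 7.5e-04, 0.00308 and 0.00308 for rho. With these columns 0 members were called in any comparison, beside 4.28% of all genes tested in that fit for dsGFP against uninjected and 2.71% for injected against uninjected.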

How the data were processed

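Counts of read pairs per gene were deposited by the authors as 1 file per library, in STAR's layout; the submitters' processing notes name STAR 2.6.1b. No genome build is given in the sources used here. Per the labels' protocols, mRNA was enriched with oligo(dT) and sequenced from both ends (150 bp), with no strand-marking step described. Each file has 4 summary lines and 15430 rows, of which 12 held a fragment of a product description (0.0518 to 0.0608% of counts) and were left out. Multimapped pairs were not counted, so near-identical family members may be undercounted.

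Counts without regard to strand were scaled by TMM and tested with edgeR 4.0.16 (glmQLFit, robust; glmQLFTest) in R 4.3.3, with 9 libraries and 3 groups in a single fit and Benjamini-Hochberg adjustment over 11665 genes kept by filterByExpr. The edgeR fit was run on simulated data for dsGFP against water, and the outcome is not given here. DESeq2 1.42.0 (shares are of genes it gave an adjusted p) and limma 3.58.1 were alternatives, with other scalings, filters, a replicate block and each library left out. Standard errors come from the F statistic. Correlations use log2(CPM + 0.1) and exact permutations of 9 libraries, moved freely across groups. No p was computed for any r within groups. DLC-A, a dynein gene, matched the immunity patterns by its letters and was dropped.

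Members and lists were chosen with earlier results of these data known. Named members were those called by edgeR or DESeq2, the 5 of smallest p per comparison, the 6 of highest CPM, SP49, SP102 and all that failed the filter; SP37, SP38, SP72, SP132 and the others given values in the text were named after their values had been seen. Protein and promoter sequences were not used here.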

Additional observations from a re-analysis of the deposited data

How the results depend on the processing

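The count of members called by edgeR was 0 in each comparison and stayed 0 in 17 of 21 alternatives for dsGFP against uninjected, 20 of 21 for dsGFP against water, 21 of 21 for water against uninjected, 18 of 20 for injected against uninjected and 18 of 18 for any difference. The exceptions were DESeq2 (4 members for dsGFP against uninjected, 1 for dsGFP against water and 2 for injected against uninjected) and upper-quartile factors (1 for dsGFP against uninjected, SP115). Leaving out 1 library gave 0 to 1 members for dsGFP against uninjected (SP9 without water 2, SP115 without uninjected 1) and 0 to 1 for injected against uninjected (SP115 without uninjected 1). Leaving out dsGFP 1, water 3 and uninjected 3 together, or uninjected 2 and 3 together, gave 0 members in each comparison. These fits were chosen after seeing the data. The first leaves 2 pools per group and called 0 of 11653 genes in every comparison; the second leaves 1 uninjected pool, assumed to vary like the other groups, and called 0 to 12 of 11948 genes. With so few calls over all genes, neither shows anything about the members' stability. The cause of the differences was not tested. The median log2 fold change over tested members ran from 0.07 to 0.32 for dsGFP against water, where leaving out water 1 gave 0.32, from 0.13 to 0.41 for dsGFP against uninjected and from -0.08 to 0.26 for water against uninjected. Labels number the pools 1 to 3 in each group. Deviations of same-numbered pools from their group means gave r = -0.33 to 0.43 over pairs of groups. Differently numbered pools gave r = -0.64 to 0.59. No pairing by number was seen, but with 3 pools per group this does not settle whether the number pairs them. With a replicate block 0 members were called in each comparison. Depth limits 17 members with at most 11 counts per library.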
